A study of Mus musculus with 6 samples.

Results

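Cd209a conventional dendritic cells were followed in single-cell transcriptomes of the collecting lymphatics of mouse skin, the muscular vessels that pump lymph, taken with the tissue around them. Cells were selected by their own unique molecular identifiers (UMIs, which count captured transcripts) among droplet barcodes that showed 500 genes or more and no more than 10% of UMIs from mitochondrial genes. A member held at least 20 UMIs of H2-Aa, H2-Ab1, H2-Eb1 and Cd74 together, at least 1 UMI of Cd209a, at most 2 UMIs of C1qa, C1qb and C1qc together, and none of Ccr7, Xcr1, Clec9a or Cd79a. This gate took 440 of 24488 kept barcodes (1.80%). These cells were set against 4530 macrophages, defined by at least 10 UMIs of the C1q genes with none of Ccr7, Xcr1, Clec9a or Cd79a, and against all other kept barcodes.

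The mice were of strain C57BL/6 and came at 3 ages, with 1 library labelled male and 1 labelled female at each. Young mice were 6 weeks old, middle-aged mice 12 months and aged mice 18 months. All had Evans Blue dye placed in the inguinal lymph node, and the vessels between it and the axillary node were dissected and dissociated with collagenase, elastase and dispase before red cells were lysed. The supplier of the aged mice was not that of the other 2 ages, so age and supplier cannot be told apart. How many mice a library holds is not given, so the p-values measure only the spread between these libraries. In the middle-aged pair the sex labels went against the data: members of the labelled male library held 502 UMIs of Xist and 0 of Y-linked genes, while those of the labelled female library held 0 and 10. The labelled middle-aged female library gave only 5 members and was left out of the gene tests, which therefore used 5 libraries. Below, 5 values in a row give first the young male and female libraries, then the labelled middle-aged male one, then the aged male and female ones.

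Conventional dendritic cells sample tissue antigens, load them on MHC class II molecules and carry them through lymph to nodes, where they prime T cells. They depend on the receptor Flt3 and fall into a cross-presenting kind that bears Xcr1 and Clec9a and a kind known as cDC2, which in mouse skin often bears the lectins Clec10a and Mgl2. Cd209a encodes a C-type lectin receptor of the DC-SIGN family and is also known from monocyte-derived dendritic cells and some macrophages, so the gate rests on 1 lectin and the absence of other classes' genes rather than on lineage.

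Members made a small share of every library. Numbers of members were 158 in the young male, 85 in the young female, 121 in the labelled middle-aged male, 5 in the labelled middle-aged female, 42 in the aged male and 29 in the aged female library. Their shares of kept barcodes were 1.92%, 1.89%, 1.90%, 0.501%, 1.41% and 2.04% in that order. The lowest share had an exact (Clopper-Pearson) 95% interval of 0.163 to 1.16%, which lay below the intervals of all other libraries but the aged male one. The mean share was 1.73% in the aged and 1.91% in the young pair, a difference of -0.180 percentage points (exact two-sided permutation test, p = 1, where 2 libraries against 2 cannot go below 0.333). Without the aged male library the difference turned to 0.137 points. Among barcodes with a UMI of Ptprc, which encodes the leukocyte antigen CD45, the shares varied more, at 7.73%, 4.51%, 6.46%, 1.78%, 3.88% and 4.71%, and the aged minus young difference was -1.82 points (exact permutation p = 0.667). Per 100 macrophages there were 11.6, 9.87, 8.84, 6.10, 7.73 and 9.18 members over the 6 libraries.

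**Figure D1:**
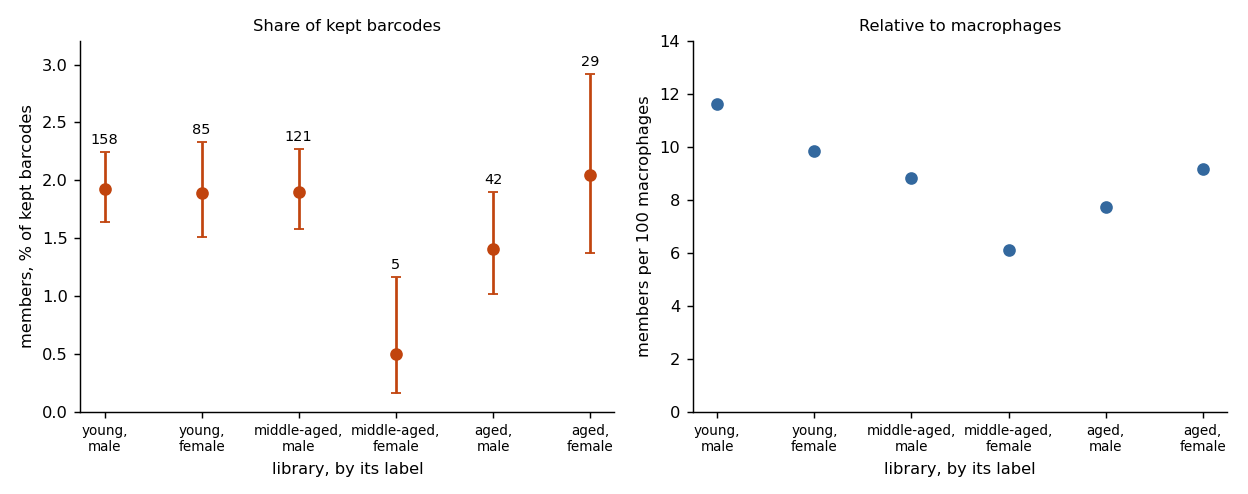
Left, members as a percentage of kept barcodes in each library, with exact 95% intervals of the counts and the number of members above each point. Right, members per 100 macrophages. Of the 6 libraries, the labelled middle-aged female one lies lowest in both panels, at 0.501% and 6.10.

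The 6 libraries held 9616652 to 28921825 UMIs in all. Members held 872 to 15085 UMIs, with a median of 2757 (2445 in macrophages), and a median of 1058.5 genes. Library medians of members exceeded those of macrophages by 373 UMIs on average (SD 259, n = 5 libraries, higher in 4, exact sign-flip permutation p = 0.125). Mitochondrial UMIs were lower in members in all 5 pairs, by 0.400 percentage points on average, at the smallest p that 5 pairs can give (exact sign-flip permutation p = 0.0625). Scrublet marked 20 of the 440 members as possible doublets, and they were kept in the values given here. No barcode sequence was a member in more than 1 library, and 3 members had a sequence that was also kept in another library.

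The genes that chose the members are given as levels with no test. On the scale of CPM (UMIs per 1000000 of the summed class, mean ± SD over 5 libraries), Cd209a stood at 990 ± 160 in members and 181 ± 99.1 in macrophages. H2-Ab1, a chain of the class II molecule I-A, stood at 8300 ± 1080 and 2139 ± 603, and Cd74, the invariant chain, at 20145 ± 2729 and 6736 ± 1985. The 4 class II genes of the gate gave 21 to 859 UMIs in a member, and had a median share of 4.47% of its UMIs (0.945% in macrophages). Of the members, 141 (32.0%) held a single Cd209a UMI and 215 held 3 or more. Cells on the 2 sides of the limits were alike in some measures and unlike in others. Members with 1 or 2 C1q UMIs (40 cells) had Napsa at 198 CPM and Apoe at 369 CPM, and the 23 barcodes with 3 to 5 C1q UMIs that met all other limits had 91.7 and 4248 CPM. Another 939 barcodes met every limit but held no Cd209a UMI, with Napsa at 147 CPM and Lyz1 at 2053 CPM, so the gate took the smaller part of the class II-rich, C1q-poor barcodes.

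Genes outside the gate set members apart from macrophages, among them Napsa, the marker of the class that the gate did not use. Because the classes were cut from the same cells' RNA, each p-value below describes the classes that the gates made and is no independent evidence that the classes exist. Napsa, which encodes the aspartic protease napsin A, stood at 510, 282, 233, 304 and 347 CPM in members and at 7.29 ± 5.83 CPM (SD, n = 5) in macrophages. Every library of members lay above every library of macrophages, by 5.77 ± 0.28 on the log2 scale (SE, edgeR quasi-likelihood test, adjusted p = 1.2e-13). In barcodes of at most 50 UMIs, taken as a measure of free RNA, Napsa made 6.13 to 21.1 CPM. Napsa did not part members from the 2 other dendritic cell classes described below (0.08 ± 0.20 and -0.07 ± 0.23, edgeR adjusted p = 0.93 and 0.89). Of 9121 genes tested against macrophages, 1292 (14.2%) were higher in members and 1608 (17.6%) lower at an adjusted p under 0.05.

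Flt3, the receptor through which dendritic cells receive their growth signal, stood at 65.7, 60.8, 47.7, 82.8 and 35.5 CPM in members. Macrophages held 3 Flt3 UMIs in all, and the difference was 7.73 ± 0.53 (log2, edgeR adjusted p = 4.9e-11). Zbtb46, a transcription factor restricted largely to conventional dendritic cells, was higher by 1.67 ± 0.45 (adjusted p = 0.0062), a call that was lost without the labelled middle-aged male library. Itgax, which encodes the integrin CD11c, rose by 3.28 ± 0.49. Of 19 tested conventional dendritic cell genes 16 were higher and 1 lower, with a median of 2.31 beside -0.12 over all genes tested. The 1 lower gene was Irf8, a transcription factor of the cross-presenting kind, at 25.9 ± 20.9 CPM in members and 108 ± 26.4 CPM in macrophages (-2.01 ± 0.29, adjusted p = 7.8e-06).

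Natural killer receptor genes gave some of the widest gaps. Klrd1, which encodes CD94, stood at 226, 89.6, 146, 166 and 42.5 CPM in members and at 0 to 2.16 CPM in macrophages (7.78 ± 0.37, edgeR adjusted p = 1.2e-13). Klrb1b, a lectin receptor of the same gene complex, stood 6.83 ± 0.43 above macrophages. By the naming rule these were followed by Gpr171, a G protein-coupled receptor (6.44 ± 0.54), Mir155hg, the host transcript of microRNA 155 (5.95 ± 0.49), Upb1, an enzyme of pyrimidine breakdown (5.80 ± 0.29), and P2ry10, a lysophospholipid receptor (5.80 ± 0.35). Tnip3, which encodes an NF-kB restraining protein, was abundant at 539, 1341, 884, 1104 and 603 CPM and 4.38 ± 0.20 above macrophages. Of 9 markers of natural killer and innate lymphoid cells, Ncr1, Nkg7, Klrb1c and Gzmb were at 0 UMIs in members. The list summed to 135 to 221 CPM in members and 64.0 to 107 CPM in macrophages over the 5 libraries, with Klrk1, which encodes the receptor NKG2D, at 84.5 and 1.71 CPM. Of 10 T-cell markers 7 were at 0 UMIs in the members, and without Il7r the list gave a UMI in 2 members. Il7r, the interleukin 7 receptor, was itself 4.80 ± 0.42 above macrophages (adjusted p = 3.0e-09).

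**Figure D2:**
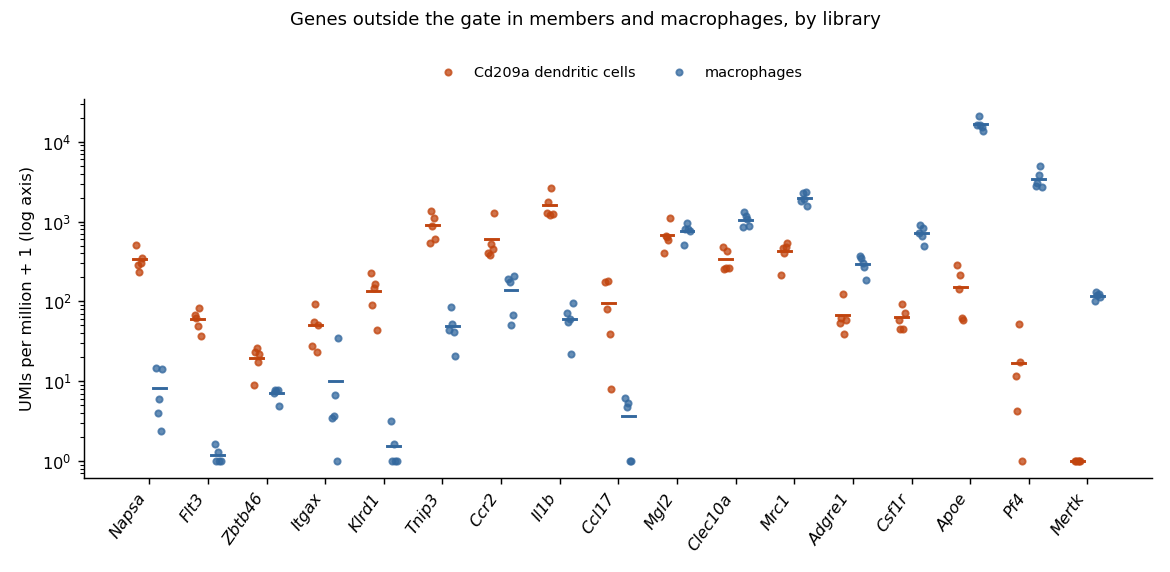
Level of 17 genes outside the gate in members and macrophages. Each point is 1 of 5 libraries, short lines are means, and the log axis shows CPM plus 1. Napsa, Flt3, Klrd1, Tnip3 and Il1b lie above macrophages in every library, Mgl2 overlaps, and Apoe, Pf4 and Mertk lie below.

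Shares of cells with a UMI gave the same order after each cell was thinned to 1500 UMIs, which left 395 members and 3838 macrophages. Napsa was seen in 38.5% of thinned members and 0.886% of thinned macrophages (59.1% and 1.46% unthinned). Barcodes of a fibroblast gate (11132 thinned), which should lack the gene, gave 0.144%. This gate asked for at least 10 UMIs of Col1a1, Col1a2, Col3a1 and Dcn together, no Ptprc UMI and at most 2 C1q UMIs. As it left out barcodes with Ptprc, its background may be low, and 5 members also met it. Klrd1 was seen in 17.2%, 0.0782% and 0.0449% of the same 3 classes (28.2%, 0.155% and 0.0751% unthinned). Zbtb46 was seen in 3.54%, 0.860% and 1.27% (5.68%, 1.88% and 3.55% unthinned), so the fibroblast gate lay above macrophages. For Irf4, a transcription factor of the cDC2 kind, the shares were 7.59%, 6.20% and 5.25% (11.6%, 10.1% and 11.7% unthinned), so its detection lay near background. Its difference from macrophages of 0.68 ± 0.23 (edgeR adjusted p = 0.028) was lost in 7 of 13 alternative settings.

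The lectins of skin cDC2 cells did not set members above macrophages. Mgl2, which encodes CD301b, stood at 405, 653, 643, 591 and 1113 CPM in members and at 766 ± 164 CPM in macrophages, a difference of -0.09 ± 0.17 that did not pass (adjusted p = 0.73). Clec10a, which encodes CD301a, stood at 473, 256, 258, 425 and 262 CPM against 1058 ± 192 CPM, lower by 1.56 ± 0.21 on the log2 scale in every library (edgeR adjusted p = 2.6e-06). Sirpa, an inhibitory receptor used to sort cDC2 cells, fell by 1.04 on the log2 scale, and the transcription factor Klf4 fell by 1.29. Among 19 tested cDC2 genes 8 were higher and 5 lower, with a median of 0.08. After thinning, Mgl2 was seen in 41.3% of members, 60.4% of macrophages and 0.216% of the fibroblast gate (51.4%, 71.9% and 0.526% unthinned).

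Macrophage genes were lower almost as a block. Of 36 tested, 34 were lower and 0 higher, and the median was -4.40, or -4.01 with the 3 genes at 0 UMIs held at their bound. Apoe, a lipid carrier that macrophages make in quantity, stood at 281, 141, 216, 60.7 and 56.7 CPM in members and 16564 ± 2666 CPM in macrophages. Its level in members was below the 1868 to 5185 CPM of barcodes with at most 50 UMIs. Mertk, a receptor for dying cells, gave 0 UMIs in the members and 117 ± 12.3 CPM in macrophages, at least 53.5-fold lower against a floor of 3 UMIs over the 5 libraries (2.19 CPM). Ccl12, a chemokine, C6, a complement component, and Pla2g2d, a secreted phospholipase, also gave 0 UMIs, at least 111-fold, 88.3-fold and 86.6-fold lower. Adgre1, which encodes F4/80, kept 66.4 ± 33.0 CPM in members against 296 ± 73.1 CPM, and Mrc1, the mannose receptor, 423 ± 127 against 1981 ± 310 CPM. Both were lower, at -2.05 and -2.16. Csf1r, the growth factor receptor of macrophages, fell by 3.41.

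Cd209a was not followed by its relatives. The gene lies at chr8:3743397-3748984 (GRCm38, minus strand), with its paralogs on the same chromosome. Cd209f stood at 0, 9.601, 5.61, 0 and 0 CPM in members and at 1197 ± 227 CPM in macrophages, and fell by 8.22 on the log2 scale (edgeR adjusted p = 1.9e-14). Cd209g fell by 7.48, Cd209b by 4.88 and Cd209d by 1.97. Only Cd209c of the tested relatives was higher in members, by 2.32 ± 0.62, at 18.2 ± 17.4 against 3.29 ± 2.35 CPM. Cd209e, with 4 UMIs in the tested members, lost its call in 5 of 10 alternatives. Paralogs of this family resemble each other, so reads may have been split among them in counting. Over 27 C-type lectins tested, 8 were higher and 14 lower.

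Beyond the 4 genes of the gate, the class II loading genes were higher in members. H2-DMa, a chain of the factor that exchanges class II peptides, stood at 1112, 912, 758, 591 and 986 CPM in members and 225 ± 47.0 CPM in macrophages (2.08 ± 0.19, edgeR adjusted p = 7.0e-09). H2-DMb2, for its partner chain, rose by 4.58 ± 0.27 and H2-DMb1 by 2.29 ± 0.20. These near-identical copies can split reads, so the share of each is uncertain. H2-Oa and H2-Ob, whose product restrains H2-DM, rose by 5.42 ± 0.56 and 3.90 ± 0.40. Ciita, the transactivator of class II genes, was 1.22 ± 0.34 above macrophages (adjusted p = 0.0078), and the call was lost in 3 of 13 alternatives, among them the one without the aged female library, whose 156 CPM was the highest. Ctss and Cst3, a protease of the invariant chain and its inhibitor, did not pass (-0.06 ± 0.16 and -0.21 ± 0.18). Of 22 tested class II pathway genes 8 were higher and 6 lower, with a median of 0.12. Since the gate required class II UMIs, a higher level of genes under the same transactivator is not independent of it.

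The promoters of these genes are shown because class II genes share an upstream box with an inverted CCAAT motif. Each line gives 250 bases before the RefSeq start (GRCm38.p6) from 5′ to 3′ on the gene's strand, with every ATTGG or CCAAT in capitals. H2-Eb1 lies at chr17:34305617-34305866, H2-DMb1 at chr17:34152941-34153190, H2-DMb2 at chr17:34144999-34145248 and H2-Oa at chr17:34092129-34092378, all on the plus strand. Cd209a (chr8:3748985-3749234, minus strand) is shown for contrast.
H2-Eb1: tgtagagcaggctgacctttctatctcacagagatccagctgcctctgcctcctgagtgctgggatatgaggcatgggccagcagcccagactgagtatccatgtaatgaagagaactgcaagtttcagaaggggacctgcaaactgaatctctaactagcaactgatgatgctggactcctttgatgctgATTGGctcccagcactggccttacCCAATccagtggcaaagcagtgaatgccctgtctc
H2-DMb1: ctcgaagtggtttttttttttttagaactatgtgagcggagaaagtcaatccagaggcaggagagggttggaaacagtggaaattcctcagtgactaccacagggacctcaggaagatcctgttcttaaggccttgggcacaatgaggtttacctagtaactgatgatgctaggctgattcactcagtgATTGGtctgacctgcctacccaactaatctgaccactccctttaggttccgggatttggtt
H2-DMb2: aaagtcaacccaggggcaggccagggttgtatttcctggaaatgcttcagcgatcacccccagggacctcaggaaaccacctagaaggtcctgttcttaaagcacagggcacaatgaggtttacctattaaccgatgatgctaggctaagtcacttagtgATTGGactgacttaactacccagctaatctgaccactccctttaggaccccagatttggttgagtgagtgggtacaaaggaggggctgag
H2-Oa: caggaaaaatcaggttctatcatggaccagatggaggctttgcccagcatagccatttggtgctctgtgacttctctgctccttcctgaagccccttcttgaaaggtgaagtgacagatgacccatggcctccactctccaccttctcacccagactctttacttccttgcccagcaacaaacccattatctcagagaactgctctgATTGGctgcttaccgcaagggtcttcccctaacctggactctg
Cd209a: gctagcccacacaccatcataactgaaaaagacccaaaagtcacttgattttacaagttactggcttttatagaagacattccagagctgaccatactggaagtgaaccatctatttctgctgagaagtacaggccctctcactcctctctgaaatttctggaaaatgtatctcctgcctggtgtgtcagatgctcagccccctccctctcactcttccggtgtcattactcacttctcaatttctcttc
The first match lay 54, 56, 85 and 38 bases before the start in the 4 class II genes, in the order of the lines. No match was found in the Cd209a window. The 7 class II genes looked up (H2-Aa, H2-Eb1, H2-DMa, H2-DMb1, H2-DMb2, H2-Oa and H2-Ob) each held the motif in at least 1 promoter. For H2-DMa, 1 window held a match 193 bases before its start and another held 0. Other class II genes, H2-Ab1 among them, were not looked up. The motif was in 33.8% of all 32817 promoters of that length, a share by promoter and not by gene. The motif is short and a match is no measure of binding.

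Genes of costimulation and checkpoints, taken as 1 list, were mostly higher in members. Of 20 tested, 14 were higher and 2 lower, with a median of 1.65, where 14.2% of all genes were higher and 17.6% lower. The higher genes included Cd274, Havcr2 and Btla, which are checkpoint genes. The calls of Cd274 and Cd83 were lost in 6 and 11 of 13 alternative settings. Cd80, a ligand of CD28, stood at 65.7, 89.6, 115, 82.8 and 7.09 CPM against 25.0 ± 5.62 CPM in macrophages (1.66 ± 0.26, edgeR adjusted p = 1.9e-05). In the aged female library alone it lay below macrophages. Tnfsf9, the ligand of 4-1BB, rose by 1.88 ± 0.24, and Cd52, a small surface glycoprotein, by 2.73 ± 0.18. Cd86 and Cd40, which also signal to and from T cells, did not pass, at 117 ± 31.9 against 145 ± 20.4 CPM and 26.6 ± 16.6 against 29.3 ± 4.02 CPM.

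Il1b, the gene of interleukin 1 beta, was far higher in members than in macrophages. It passed in neither direction against the Ccr7 dendritic cells described below. Its levels were 1277, 1744, 1221, 2661 and 1234 CPM in members and 59.6 ± 26.6 CPM in macrophages (4.90 ± 0.32, edgeR adjusted p = 2.0e-11). It was seen in 54.2% of thinned members, 4.04% of macrophages and 0.350% of the fibroblast gate (61.4%, 4.97% and 0.617% unthinned). Il10, an anti-inflammatory cytokine, fell by 4.79 on the log2 scale and Tnf by 1.98. Of 21 cytokine genes tested 4 were higher and 8 lower, where 14.2% of all genes were higher and 17.6% lower.

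Among 22 chemokine ligands tested, 4 were higher (Ccl5, Ccl17, Ccl22 and Cxcl9) and 12 lower. Over all genes 14.2% were higher and 17.6% lower, so the count of higher ligands lay near that share. Most UMIs of Ccl5 and of Cxcl9 came from 1 library each. Ccl5 gave 4, 1, 7, 80 and 0 UMIs in members of the 5 libraries, and Cxcl9 gave 1, 16, 3, 4 and 1. Against all other kept barcodes Ccl5 was lower in members. Ccl17 stood at 173, 80.0, 177, 38.6 and 7.09 CPM in members and 0 to 5.25 CPM in macrophages, higher by 5.26 ± 0.33 (edgeR adjusted p = 1.1e-11). Its lowest members' level, in the aged female library, was a single UMI. Ccl22 rose by 5.89 ± 0.73 from 31 UMIs in members. Pf4 and Ccl8, chemokines of resident macrophages, stood at -7.51 and -7.67 relative to macrophages. Ccr2, the receptor that draws monocytes into tissue, stood at 399, 381, 522, 458 and 1269 CPM against 137 ± 73.1 CPM (2.31 ± 0.25, adjusted p = 1.1e-07). Of 16 receptors tested 7 were higher and 7 lower.

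Genes of movement and the cytoskeleton had the largest share of higher calls after the conventional dendritic cell list among lists of 10 or more tested genes. Of 31 tested 23 were higher and 2 lower, with a median of 1.09. Itgb7, an integrin chain of leukocyte homing, stood at 176, 118, 138, 177 and 163 CPM against 7.39 ± 4.01 CPM (4.54 ± 0.25, edgeR adjusted p = 1.4e-12). Lsp1, a leukocyte actin-binding protein, rose by 3.11 ± 0.18 and S100a4, a calcium-binding protein, by 2.43 ± 0.18. Innate sensors went the other way, with 2 of 29 higher and 12 lower. Tlr4, the endotoxin receptor, fell by 4.17 and Tlr7, a sensor of single-stranded RNA, by 3.70. Of 41 interferon-response genes 1 was higher and 27 lower, with a median of -1.29. Irf7 and Isg15, both induced by interferon, were lower too, at -1.65 and -0.86. Respiratory chain genes moved little, with a median of 0.22 over 61 tested, of which 17 were higher and 1 lower.

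Monocyte genes were split. Of 21 tested 9 were higher and 5 lower, with a median of 0.47. Ly6c2, a surface protein of inflammatory monocytes, stood at 103, 76.8, 2.81, 44.2 and 14.2 CPM in members against 13.7 ± 20.3 CPM (2.22 ± 0.45, edgeR adjusted p = 0.00042), a call that was lost without the library block. Lyz2, the lysozyme gene of myeloid cells, fell by 0.59 on the log2 scale.

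**Figure D3:**
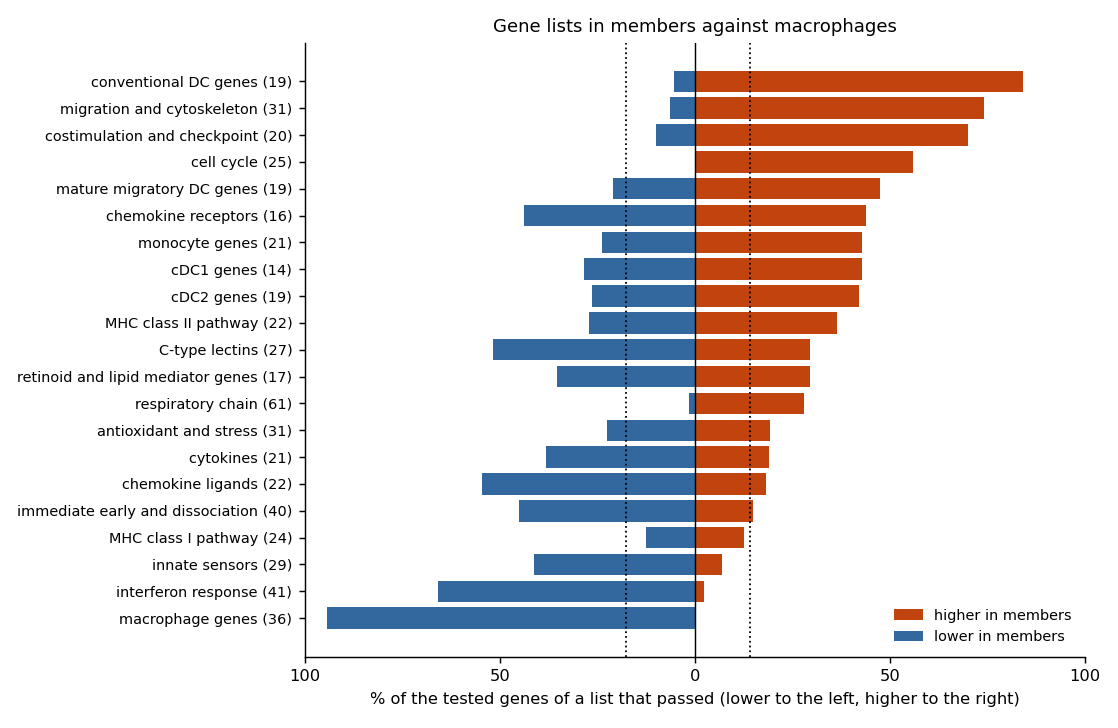
Percentage of the tested genes of each list that were higher (right) or lower (left) in members than in macrophages, with the number tested in brackets. Dotted lines mark the share of all genes, 14.2% higher and 17.6% lower. The conventional dendritic cell list lies farthest to the right and the macrophage list has no higher gene.

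More members than macrophages carried transcripts of dividing cells. Of 25 tested cell cycle genes 14 were higher and 0 lower, with a median of 1.604. Mki67, a marker of cycling cells, stood at 131, 166, 75.8, 60.7 and 21.3 CPM in members and 10.9 ± 7.32 CPM in macrophages (3.36 ± 0.34, edgeR adjusted p = 3.0e-08). Top2a, a topoisomerase of dividing cells, rose by 3.10 ± 0.34. At 1500 UMIs per cell, 13.9% of members and 1.82% of macrophages held a UMI of Mki67, Top2a, Ube2c or Hist1h1b (20.2% and 2.76% unthinned). These shares describe transcripts and no phase was called. Against the Ccr7 class described below, 0 of 10 tested cell cycle genes passed (0.508% of all genes higher, 0.807% lower), with a median of 0.20. Against the Xcr1 Clec9a class 0 of 9 were higher and 2 lower (5.89% and 5.49% of all genes), with a median of 0.42.

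Against all other kept barcodes, most of them stromal, 1591 of 13413 genes tested were higher (11.9%) and 3485 lower (26%), with a median of -0.43. Named by their fold, the leading genes were Klrb1b (5.07 ± 0.31), Flt3 (5.06 ± 0.36), Ccl17 (4.92 ± 0.30), Mefv, which encodes pyrin (4.57 ± 0.33), Tnip3 (4.54 ± 0.22), Napsa (4.52 ± 0.22), Klrd1 (4.39 ± 0.24) and Il1b (4.33 ± 0.22). Genes that did not part members from macrophages did part them from this mixture: Mgl2 rose by 2.26, Cd86 by 1.84, Cd40 by 1.87 and Ctss by 1.92. Prlr, the prolactin receptor, and Vgll3, a cofactor of transcription, led the lower genes at -7.50 ± 0.60 and -6.68 ± 0.60. Each gave a single UMI in members, so the size of both folds is uncertain. Fibroblast markers were lower in 10 of 10.

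The 207 Ccr7 dendritic cells had the fewest genes that differed from members among the classes compared. They met the members' limits on class II, C1q, Xcr1, Clec9a and Cd79a and held at least 1 Ccr7 UMI. Cd209a was not required, and 107 of them held it and so met every member limit but that on Ccr7. The barcodes that met every member limit but held no Cd209a were not tested. Ccr7 is the receptor by which mature dendritic cells follow lymph to nodes. Over the 4 libraries with at least 10 cells of each, 17 of 3346 genes were higher in members (0.508%) and 27 lower (0.807%). Ccl22 stood at 23.7, 19.2, 39.3 and 11.04 CPM in members and at 251, 476, 277 and 0 CPM in the Ccr7 class, in the order given but without the aged female library. It fell by 3.45 on the log2 scale (edgeR adjusted p = 0.00018), although the aged male Ccr7 class lay below the members. Fabp5, a fatty acid carrier, stood at 80.3 ± 16.8 CPM against 504 ± 317 CPM (-2.46 ± 0.29, adjusted p = 0.00022). Il12b, a subunit of interleukin 12, gave 0 UMIs in members and 77.5 ± 117 CPM in the Ccr7 class, at least 31.8-fold lower. Serpinb9, an inhibitor of granzyme B, fell by 3.26 and Tbc1d4, a regulator of vesicle traffic, by 3.36. Of 15 tested mature migratory genes 0 were higher and 5 lower, with a median of -1.07 beside 0.00 over all genes.

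Lyz2 was higher in members than in the Ccr7 class, at 3615 ± 635 against 1475 ± 337 CPM (1.24 ± 0.12, edgeR adjusted p = 5.9e-05). Ccr2 rose by 1.21 ± 0.21 and F13a1, a coagulation factor of monocytes and macrophages, by 1.84 ± 0.31. Il1b, Tnip3 and Klrd1 passed in neither direction. In the 107 barcodes that met every member limit but that on Ccr7, these genes stood at 2990, 1214 and 185 CPM, pooled over libraries. The 400 members without a C1q UMI had 1722, 876 and 155 CPM. Among 14 class II pathway genes and 17 genes of costimulation and checkpoints, 0 passed here. Because only 0.508% of all genes were higher and 0.807% lower, a count of 0 in lists of this size sets them apart in nothing. Without the library block 0 genes passed this comparison, 12 did without the young male library and 15 without the labelled middle-aged male library, and DESeq2 called 24. The calls of Fabp5 and Lyz2 were lost only without the library block, and those of Ccr2 and F13a1 in 3 alternatives each.

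The 88 Xcr1 Clec9a dendritic cells, gated with at least 1 UMI of Xcr1 or Clec9a, stood farther off. Cd209a was not required here either, and 12 of them met every member limit but that on Xcr1 and Clec9a. In the same 4 libraries 150 of 2548 genes were higher in members (5.89%) and 140 lower (5.49%). Irf8 stood at 47.3, 12.8, 14.03 and 5.52 CPM in members and at 487, 707, 519 and 515 CPM in the Xcr1 Clec9a class, with no overlap (-4.77 ± 0.38, edgeR adjusted p = 6.6e-07). Cadm1, an adhesion protein of cross-presenting cells, fell by 4.02 and Tlr3, a sensor of double-stranded RNA, by 5.12. Cst3 stood at 3257 ± 277 against 15417 ± 4158 CPM and fell by 2.28 (adjusted p = 1.9e-09). Of 12 tested genes of the cross-presenting kind 0 were higher and 10 lower, with a median of -3.06.

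In the other direction, Mgl2 stood at 405, 653, 643 and 591 CPM in members against 0, 34.9, 146 and 29.4 CPM (3.54 ± 0.40, edgeR adjusted p = 2.3e-05). Clec10a, at 353 ± 113 against 37.2 ± 18.9 CPM, was 3.07 ± 0.37 higher. Il1b rose by 1.36 ± 0.21, and Thbs1, which encodes thrombospondin 1, by 4.58 ± 0.62. Of 14 tested cDC2 genes 7 were higher and 1 lower, with a median of 1.91. The count was 83 genes without the young female library, 154 without the young male library and 100 without the library block.

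**Figure D4:**
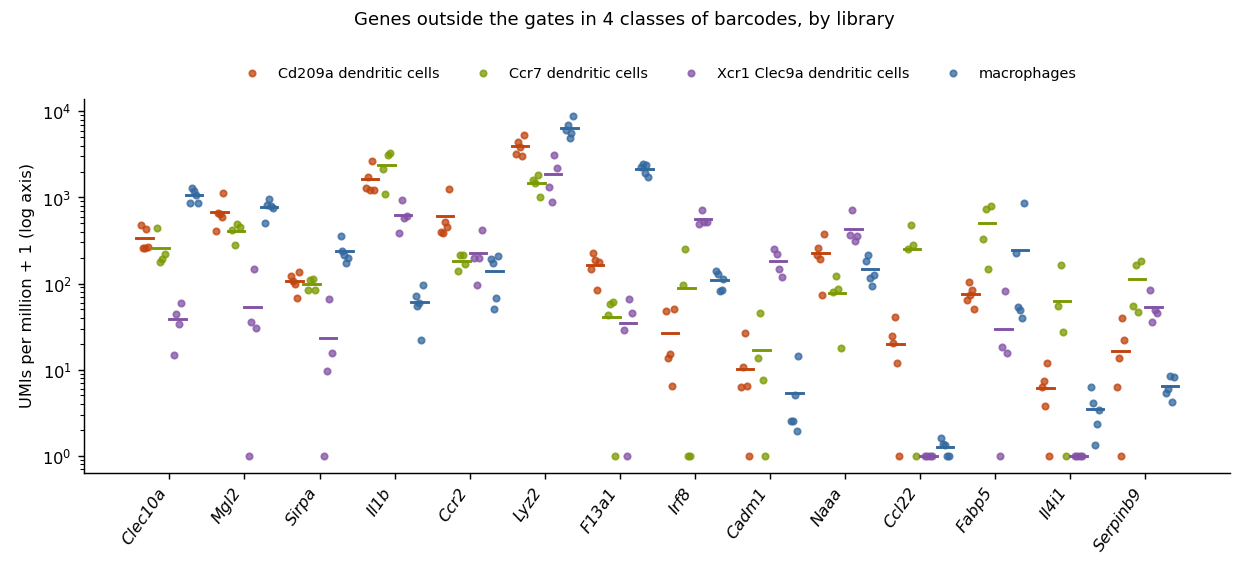
Level of 14 genes outside the gates in members, Ccr7 dendritic cells, Xcr1 Clec9a dendritic cells and macrophages. Points are libraries (5 for members and macrophages, 4 for the other classes), short lines are means, and the log axis shows CPM plus 1. Irf8, Cadm1 and Naaa have their highest means in the Xcr1 Clec9a class, and Ccl22 and Fabp5 have their highest means in the Ccr7 class.

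Members were not alike. The following groups were cut by 1 gene after the values were seen, pool cells over the 6 libraries, and are described without a test. The 34 members with at least 2 UMIs of Lyz1, a second lysozyme gene, held Retnla, a secreted resistin-like protein, at 13144 CPM and Fn1, fibronectin, at 2566 CPM, against 2258 and 537 CPM in the 393 members without Lyz1. Retnla was higher in the Lyz1 group in each of the 6 libraries. Flt3 gave no UMI in the Lyz1 group and 66.1 CPM in the others, and Klrd1 stood at 6.37 against 172 CPM. Their Cd209a level was lower too, at 338 against 1112 CPM, so this group lay toward the edge of the gate. Lyz1 stood at 864 CPM in members with 1 Cd209a UMI, 622 CPM with 2 and 22.3 CPM with 3 or more, and at the 2053 CPM given above in barcodes without Cd209a.

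Mgl2 divided members in other genes. Retnla and Fn1 were close on its 2 sides, at 3602 against 3340 CPM and 741 against 849 CPM. In the 159 members with at least 2 Mgl2 UMIs, Ccl17 stood at 211 CPM, Ly6c2 at 1.70 CPM and Plac8, a myeloid protein of monocytes, at 39.1 CPM. The 214 members without Mgl2 had 29.7, 125 and 545 CPM. Ly6c2 had no UMI in the Mgl2 group in all libraries but the aged female one, where it stood at 9.21 CPM. Of the 124 members with a Klrd1 UMI 75% also held Napsa, against 52.8% of the rest, at median depths of 2980 and 2626.5 UMIs. Among 270 members with an Il1b UMI 79.3% held Tnip3, against 47.6% of the others, at 2925 and 2507 UMIs.

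Retnla differed widely between libraries, at 594, 4135, 7124, 1866 and 5829 CPM in members. The 3 libraries with Xist UMIs lay above the 2 without, and the labelled middle-aged female library, without Xist UMIs, gave 1061 CPM from 5 cells. This was seen after the fact and was not tested. Barcodes of at most 50 UMIs held 1246, 6021, 4723, 5300 and 2256 CPM of Retnla in the same 5 libraries, so its level in members was below that of free RNA in 3 of them, the young male, young female and aged male libraries.

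The age comparison asked how members of the young and aged libraries differed. Of 4911 genes tested 5 were higher in aged (0.102%) and 32 lower (0.652%). Ube2c, a ubiquitin-conjugating enzyme of mitosis, stood at 97.2 and 115 CPM in the young, 44.9 CPM in the middle-aged and 5.52 and 0 CPM in the aged libraries (-4.90 ± 0.85, edgeR adjusted p = 0.0044). Stmn1, a microtubule regulator of dividing cells, stood at 208 and 224, 194, and 33.1 and 28.4 CPM (-2.77 ± 0.49, adjusted p = 0.0053). Hist1h1b, a linker histone of S phase, was at 310 and 262, 39.3, and 66.2 and 0 CPM (-2.95, adjusted p = 0.027). In all 3 genes both young libraries lay above both aged ones. Of 15 tested cell cycle genes 3 were lower and 0 higher, with a median of -1.80 beside 0.02 over all genes. Cells with a UMI of the 4 cycling genes made 16.0% and 19.05% of thinned young members and 7.5% and 10.3% of thinned aged members. Unthinned, the shares were 19.6% and 28.2% in young and 21.4% and 17.2% in aged members. The exact 95% interval of the thinned young male library (10.1 to 23.6%) overlapped that of the aged male library (1.57 to 20.4%). Ube2c and Hist1h1b are among these 4 genes, so the shares are not independent of the calls above.

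Plac8 stood at 581 and 192 CPM in the young and 82.8 and 85.1 CPM in the aged libraries and fell by 2.22 (edgeR adjusted p = 0.045). The call was lost without the young male library and without the labelled middle-aged male one. Hmox1, which encodes heme oxygenase 1, stood at 31.5 and 102, 272, and 740 and 121 CPM and rose by 2.79 ± 0.64 (adjusted p = 0.042). The 740 CPM came from the aged male library, without which the difference was 0.79 and did not pass. The other 4 higher genes were Ccl5, a chemokine, and the hemoglobin genes Hba-a1, Hbb-bs and Hbb-bt. They were named after their values were seen. Ccl5 stood at 442 CPM in the aged male and 0 CPM in the aged female library. Red cell markers summed to 3715 CPM in the aged male members, but 666 of their 673 UMIs came from 2 of the 42 barcodes, so the hemoglobin values are not a level of these members at large. The same markers summed to 49.6 CPM in the aged female members and 9.601 to 13.1 CPM in the other 3 libraries.

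Collagen and matrix genes made up much of the lower side. Col1a1, a chain of type I collagen, stood at 912 and 122 CPM in the young, 36.5 CPM in the middle-aged and 0 CPM in both aged libraries. Col1a2 stood at 1453 and 179, 87.0, and 5.52 and 0 CPM. Fibroblast markers were lower in 7 of 10 tested and summed to 7343, 2103, 1718, 188 and 128 CPM in members. In macrophages of the same libraries they summed to 8088, 1519, 1560, 1441 and 181 CPM, so the aged female library was lowest in both classes, while the aged male library was low in members and near the young female one in macrophages. Beyond macrophages, Col1a2, Col3a1 and Dcn were lower in aged members (-4.74 ± 0.95, -3.30 ± 0.76 and -4.41 ± 0.63, edgeR adjusted p = 0.00057, 0.0076 and 1.5e-08). The part of fibroblast RNA carried into members was not tested. When the 20 members with at least 5 UMIs of Col1a1, Col1a2, Col3a1 and Dcn together were left out, all of them from the young and the labelled middle-aged male libraries, 10 genes passed. As those members were chosen by these genes, the loss of the collagen calls follows from the choice.

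Between young and aged, 0 genes passed in either direction in 5 lists. These were conventional dendritic cell (16 tested), cDC2 (17), class II pathway (18), costimulation and checkpoint (18) and cytokine genes (12). Over all genes 0.102% were higher and 0.652% lower, so a count of 0 in lists of this size sets them apart in nothing. The calls of Ube2c, Stmn1, Hist1h1b, Plac8, Hmox1, Col1a1 and Col1a2 were lost with DESeq2, which called 4 genes, and with the library of 5 members included, where 1 gene passed. With 2 libraries an age, even large differences may not have been detectable at this depth. In simulated counts with a spread set in advance, the test recovered 5% of 2-fold and 51% of 4-fold changes.

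The middle-aged arm is 1 library, assumed in the fit to vary like the libraries of the other ages. Against young members 0 of 4911 genes passed in either direction (0% higher, 0% lower), and 2 to 27 did when a library of another arm was left out. At an unadjusted p under 0.05 there were 152, and DESeq2 called 1. The nearest were Mid1, a ubiquitin ligase (2.72 ± 0.47, edgeR adjusted p = 0.055), Col3a1, a collagen chain (-3.43), and Krt8, a keratin (5.58), and none passed. Between aged and middle-aged members 0 genes were higher (0%) and 4 lower (0.0814%), with 20 to 50 calls when a library was left out and 0 without the Scrublet-marked barcodes. These were Dcn, Plpp3, Tnfaip6 and Clec3b. Dcn, the proteoglycan decorin of fibroblasts, stood at 545 CPM in the middle-aged and 27.6 and 0 CPM in the aged members.

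Whether members changed with age beyond macrophages of the same libraries was tested as an interaction. Of 10069 genes 4 were higher (0.0397%) and 36 lower (0.358%), with a median of -0.21. Stmn1 stood at 49.8 and 55.4 CPM in young and 38.1 and 79.2 CPM in aged macrophages, where the groups overlapped, and its change in members was lower by 3.01 on the log2 scale (edgeR adjusted p = 0.00012). For Hmox1 the aged male macrophages stood at 2335 CPM and the aged female ones at 707 CPM, on the 2 sides of the young values of 1087 and 1384 CPM. Its change in members was 2.19 ± 0.48 higher (adjusted p = 0.0031). The call of Stmn1 was lost without the young male and without the aged female library, and that of Hmox1 in 5 of 10 alternatives. DESeq2 called 1 gene in this comparison. In the simulated counts this test recovered 0% of 2-fold and 3% of 4-fold changes.

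**Figure D5:**
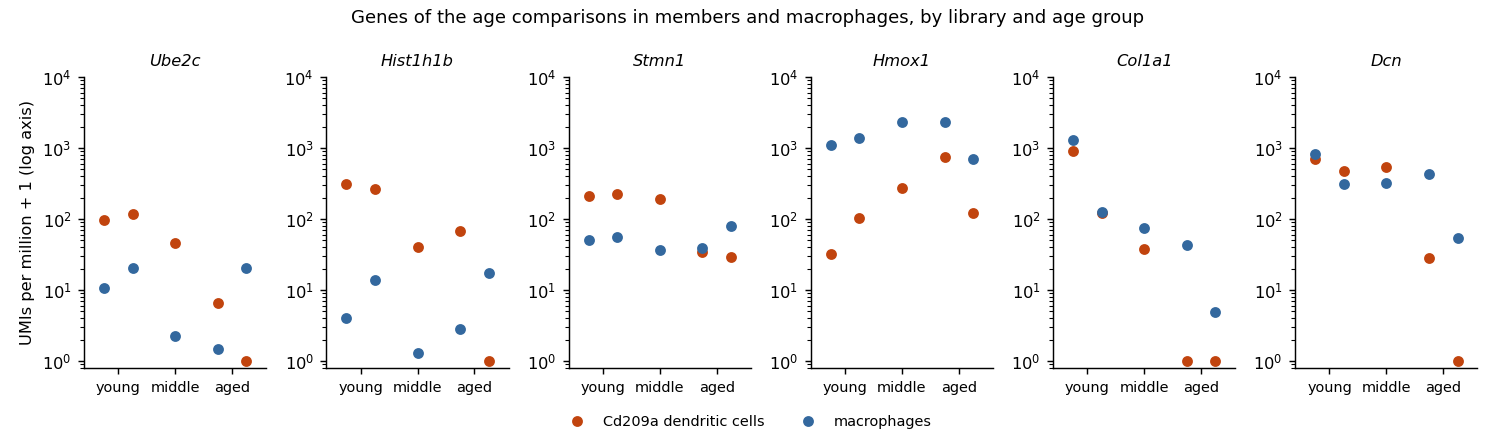
Level of 6 genes in members and macrophages, with the 2 young, 1 middle-aged and 2 aged libraries from left to right in each panel, on a log axis of CPM plus 1. Ube2c, Hist1h1b and Stmn1 lie lower in aged than in young members and overlap in macrophages, and Col1a1 is lower in both aged libraries in both classes.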

How the data were processed

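Single-cell RNA libraries from 6 samples were read as gene counts (UMIs per gene and barcode) that the authors deposited as raw matrices of 31053 genes. Per the submitters' processing notes, these came from Cell Ranger 3.0.2 with mm10, and Seurat was used. Members, gene lists and tests were chosen with earlier results of these data known. Counts were summed per library and class, and sums of at least 10 cells were tested with edgeR 4.0.16 (R 4.3.3, TMM, filterByExpr, quasi-likelihood test, Benjamini-Hochberg adjustment, adjusted p under 0.05), with library as a block between classes and age alone between ages. Each SE given with an edgeR fold is the absolute log2 fold divided by the square root of its F statistic. Counting intervals are exact (Clopper-Pearson) and cover counting error only. DESeq2 1.42.0, other scalings, no filter, left-out libraries and Scrublet (scanpy 1.11.5, Python 3.11.15) served as alternatives. Named genes were a fixed set plus the largest folds with at least 50 CPM (30 CPM for age) and 1 direction in all libraries. Up to 4 genes per list were also named by smallest p, without these limits. Where an age contrast had few calls, the genes of smallest p were named. The count tests were tested on simulated data.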

Additional observations from a re-analysis of the deposited data

Results flagged for a closer look

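For 5 genes the change from young to aged differed between members and macrophages by a test of the difference itself (edgeR quasi-likelihood test). The difference in Ube2c was -4.50 (log2, adjusted p = 0.031) but it passed in only 2 of 10 alternatives and turned to 0.37 without the aged female library. For Hist1h1b it was -3.18 (adjusted p = 0.00063), lost in 4 of 10 alternatives, and for Stmn1 -3.01 (adjusted p = 0.00012), lost in 3. For Hmox1 it was 2.19 (adjusted p = 0.0031), lost in 5. For Dcn it was -4.41 (adjusted p = 1.5e-08), lost without the aged male library and without the Scrublet-marked barcodes.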

How the results depend on the processing

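The counts of genes against macrophages (2298 to 2922 when each library was left out) and against all other barcodes (4070 to 4718) stayed within 1.5 times of 2900 and 5076 in every alternative run. The smaller contrasts did not. Against Ccr7 dendritic cells (44 genes) DESeq2 called 24, no filter 118 and no library block 0, and leaving out each library gave 12 to 45. Against Xcr1 Clec9a cells (290) DESeq2 called 162 and no block 100, with 83 to 367 on leaving out libraries. Between aged and young (37) the count was 4 with DESeq2, 77 with no filter, 14 without Scrublet-marked barcodes, 64 with labelled sex as covariate, 10 without collagen-bearing members, 18 without these, hemoglobin-bearing and marked ones, 1 with the library of 5 members, and 13 to 100 on leaving out libraries. Between middle-aged and young (0) it was 1 with RLE factors, 1 with DESeq2, 16 with no filter, 1 without marked barcodes, 15 with sex, 3 without collagen-bearing members, 10 without all such members, and 2 to 27. Between aged and middle-aged (4) the same settings gave 1 (DESeq2), 43 (no filter), 0 (marked barcodes removed), 15 (sex), 2 (collagen), 11 (all such members), 2 (sums thinned), 0 (library of 5 members) and 20 to 50. Beyond macrophages (40) DESeq2 called 1, removal of marked barcodes 17, removal of all such members 16, and left-out libraries 11 to 52. The cause of these shifts was not tested.

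Signs turned for values near 0 against macrophages. On leaving out libraries Mgl2 ran from -0.259 to 0.017 (without the labelled middle-aged male library), Ctss from -0.124 to 0.013 (without the aged female library) and Cd40 from -0.471 to 0.095 (without the young male library), and Ctss was 0.074 with the library of 5 members. Beyond macrophages, Ube2c ran from -10.92 to 0.366 (without the aged female library), and Dcn was 0.053 without the collagen-bearing, hemoglobin-bearing and marked members. Members were left out by their Dcn and collagen UMIs, so that value is no test of Dcn. The aged minus young share ran from -0.496 to 0.137 points on leaving out libraries. Leaving out the sole tested middle-aged library could not be fitted for its 2 contrasts. Labelled sex as a covariate used the label of the middle-aged library that its own Xist and Y-linked UMIs go against. The alternatives with the library of 5 members and without hemoglobin-bearing members were chosen after seeing the data. Each tested library held 29 to 158 members, and how far depth limits the age comparisons was not tested. With all sums thinned to the lowest, 25 of 2910 genes passed between aged and young, beside 37 of 4911 unthinned. Of these 25 genes, 22 were among the 37.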
